A study of Mus musculus with 8 samples.

Results

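The genes described here encode a group of voltage-gated sodium channel subunits and the fibroblast growth factor homologous factors that bind such channels, read in whole hearts of SRC-2 knockout (KO) and wild type (WT) mice. The group was chosen by name, with the differences between the genotypes known, and holds 7 genes, Fgf12, Fgf13, Fgf14, Scn4a, Scn7a, Scn3b and Scn4b, of which 6 were measured among the 18194 genes of the study. Scn4a, the pore-forming channel of skeletal muscle, was not analysed here. Hearts came from 4 SRC-2 KO and 4 WT males of the mixed strain C57B/6Jx129Sv, fed ad lib, aged 10 to 12 weeks by the sample labels (the methods of the study give a wider range) and unstressed by the design. The knockout is a germline one, so it is not limited to heart muscle cells or to the heart. RNA of each heart was hybridised to its own Affymetrix mouse array, which reads a transcript with one or more probesets, and each gene is given by its brightest probeset, the one with the highest mean log2 signal over the 8 hearts.

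Voltage-gated sodium channels carry the inward current that starts the action potential of heart muscle cells, and they set how fast the impulse travels through the atria and ventricles. An alpha subunit forms the pore, and beta subunits, small membrane proteins with an immunoglobulin-like domain, adjust its gating and its place in the membrane. The fibroblast growth factor homologous factors look like growth factors but are not secreted. They bind the intracellular tail of the alpha subunit and shift the voltage at which the channel inactivates, and Fgf13 is known as the main one of mouse ventricle. Scn7a encodes an unusual alpha subunit that responds to the sodium level outside the cell more than to voltage and is known from glia and Schwann cells.

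The promoter windows of Fgf12, the gene with the largest difference between genotypes in the group, are shown beside one of its paralogue Fgf13 and that of Scn7a, so that the sequence at the starts can be set beside the signals below. RefSeq lists 12 windows for 6 of the 7 genes in build GRCm38.p6, 4 of them for Fgf12 and 4 for Fgf13, and Scn3b was not matched. Each window runs from 250 bases before an annotated start to 50 bases after it and is written 5′ to 3′ along the gene, with matches to the motifs searched in capitals.
Fgf12 outermost start, chr16:28753194-28753493, minus strand: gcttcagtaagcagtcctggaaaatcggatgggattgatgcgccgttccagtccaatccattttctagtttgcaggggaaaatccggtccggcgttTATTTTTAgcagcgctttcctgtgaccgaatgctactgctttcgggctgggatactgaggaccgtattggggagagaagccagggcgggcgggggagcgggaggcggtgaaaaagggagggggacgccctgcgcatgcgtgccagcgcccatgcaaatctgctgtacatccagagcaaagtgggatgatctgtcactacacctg
Fgf12 inner start, chr16:28564902-28565201, minus strand: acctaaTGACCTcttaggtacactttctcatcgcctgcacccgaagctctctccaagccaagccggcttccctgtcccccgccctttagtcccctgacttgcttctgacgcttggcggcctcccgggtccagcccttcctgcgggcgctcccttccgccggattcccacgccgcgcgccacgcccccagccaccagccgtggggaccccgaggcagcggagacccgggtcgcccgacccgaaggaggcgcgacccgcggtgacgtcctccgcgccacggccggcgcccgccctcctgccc
Fgf13 outermost start, chrX:59585523-59585822, minus strand: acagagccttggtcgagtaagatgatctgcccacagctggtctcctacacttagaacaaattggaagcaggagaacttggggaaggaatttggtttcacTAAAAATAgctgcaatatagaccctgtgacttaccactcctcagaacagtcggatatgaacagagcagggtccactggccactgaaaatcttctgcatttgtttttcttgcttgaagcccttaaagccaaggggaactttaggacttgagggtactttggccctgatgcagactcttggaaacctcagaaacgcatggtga
Scn7a start, chr2:66784861-66785160, minus strand: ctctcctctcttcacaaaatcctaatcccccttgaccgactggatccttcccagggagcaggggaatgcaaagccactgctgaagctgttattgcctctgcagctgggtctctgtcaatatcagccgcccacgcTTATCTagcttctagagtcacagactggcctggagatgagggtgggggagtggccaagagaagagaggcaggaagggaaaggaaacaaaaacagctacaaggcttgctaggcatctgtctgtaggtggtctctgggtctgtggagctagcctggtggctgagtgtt
The motifs searched on both strands were the GATA factor site AGATAA or TGATAA, the nuclear receptor half-site AGGTCA, the T-box half-site AGGTGTG, the TATA box TATAAA, the clock E-box CACGTG and the MEF2 site core TAAAAATA, none of which overlapped another in these windows. The MEF2 core was found 154 bases before the outermost Fgf12 start, on the reverse strand, and 151 bases before the outermost Fgf13 start, in 2 of the 12 windows, and 2.72% of all 32851 windows of the table hold it. A nuclear receptor half-site, on the reverse strand, lay 244 bases before the inner Fgf12 start, in 1 window of the 12, against 16.3% of all windows. The GATA site, found in 1 window, on the reverse strand of that of Scn7a, is held by 18.6% of all windows, and the TATA box, found in 1 Fgf13 window past the start, by 13.6%. The T-box half-site and the E-box were in none of the 12 windows and are held by 5.84% and 7.15% of all. A match is a description of letters. The probesets are not assigned to one start or another here.

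Ncoa2, the gene that encodes SRC-2, had signals of 237.0, 259.6, 267.4 and 235.1 in KO hearts, against 1660.3, 2115, 1827 and 2134 in WT hearts. On this probeset every KO array lay below every WT array. The same held on the second brightest (log2 ratio −2.63). On the dimmer ones, with mean signals of 62.8 and 54.3, the genotypes overlapped (log2 ratios 0.67 and −0.28). Each array was scaled to the same trimmed mean, and the median signal of all probesets was 75.6 to 83.2 in KO and 77.0 to 87.3 in WT arrays. A signal under 50, which 37.9% to 40.7% of the probesets of a KO array and 36.9% to 40.5% of those of a WT array had, is taken here as near background. Precision is limited by the number of arrays. All genes entered limma, and the Benjamini-Hochberg adjustment ran over all of them, in a fit that draws the spread of each gene toward a single value (the common-variance fit) and in one that draws it toward the spread of genes of similar signal (the trended fit). The members were chosen with these comparisons known, so their values and adjusted p describe the group and are not independent evidence about it.

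Fgf12 was lower in SRC-2 KO hearts than in WT hearts by the largest margin in the group, while Fgf13, the other member with a bright signal among the homologous factors, differed by 0.15 on the log2 scale, with an interval that spans 0. For Fgf12 the signals were 930.1, 356, 109 and 235 in KO hearts, against 1999, 2625, 1716 and 1381 in WT hearts. All 4 KO hearts lay below all 4 WT hearts, and the KO hearts were far apart from each other, with replicate 1 the highest and replicate 3 the lowest. The mean signal was 408 ± 363 in KO and 1930.1 ± 528 in WT hearts (SD, n = 4 each), a log2 ratio of KO over WT of −2.63 (standard error, SE, 0.67 from the spread of the hearts, 95% interval −4.07 to −1.19 in the common-variance fit). It passed in the trended fit (adjusted p = 0.0368 in limma) and did not pass in the common-variance fit (adjusted p = 0.334). Across all genes, 0.253% were called lower and 0.121% higher, together 0.374%, in the trended fit, 0.0165% lower and 0.00550% higher in the common-variance fit, and 3.72% had all 4 KO hearts below all 4 WT hearts, against 3.12% above. Of the 6 measured members, 1 was called lower in the trended fit and 0 in the common-variance fit, and 1, Fgf12, had KO hearts wholly below WT hearts. The spread of Fgf12 within a genotype, 0.953 on the log2 scale, was several times the median of 0.182 in the tenth of genes of similar signal. RNA came from the whole heart, so fewer cells of one type and less RNA per cell cannot be told apart.

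**Figure D1:**
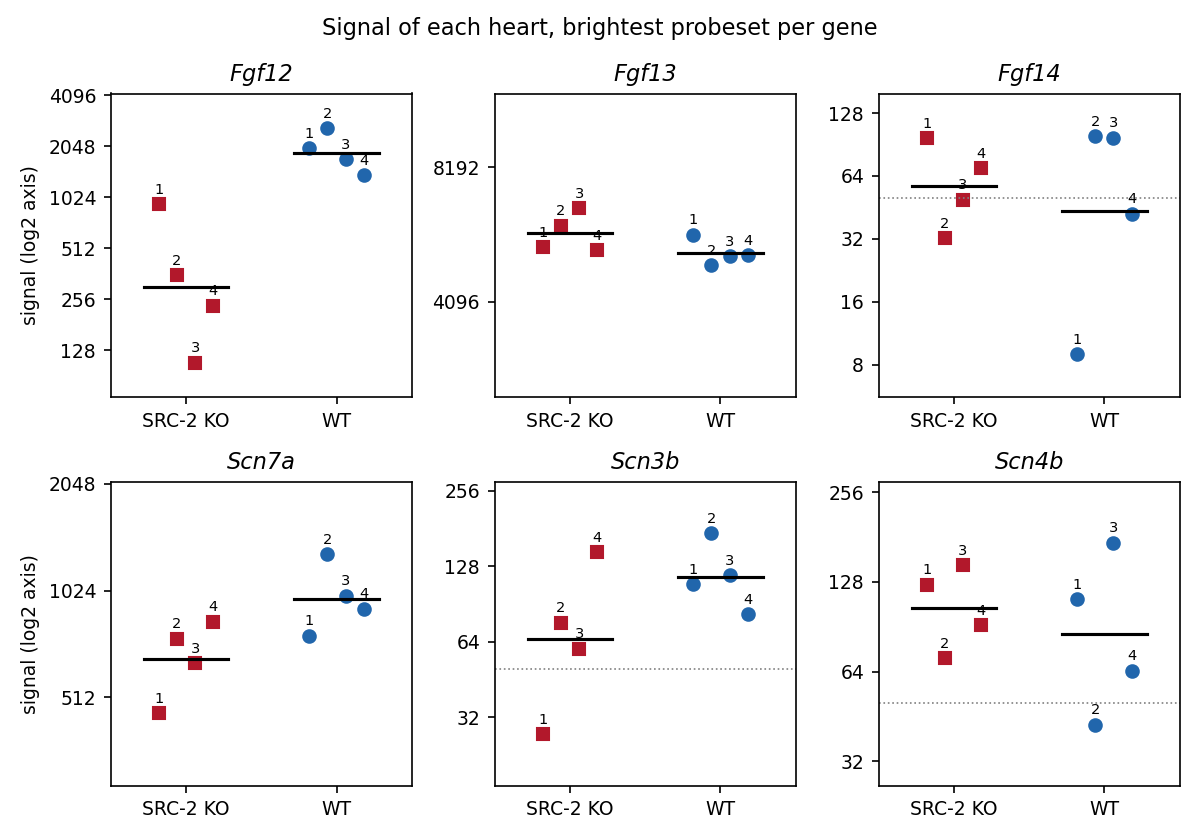
Signal of each heart, on a log2 axis, for the brightest probeset of the 6 measured genes. Squares are SRC-2 KO and circles WT hearts (n = 4 each), numbers are the replicates, horizontal bars are means of log2, and the dotted line is a signal of 50. Fgf12 is the gene of the 6 in which the KO hearts, at 109 to 930.1, all lie below the WT hearts, at 1381 to 2625.

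The lower signal of Fgf12 was seen in each of its 3 probesets. On the second brightest, the KO hearts had 588, 142, 70.7 and 60.8, against 1281, 1278, 1302 and 864 in the WT hearts (log2 ratio −3.08, SE 0.76). On the dimmest they had 162, 65.9, 57.8 and 61.3, against 403, 486, 504 and 322 (log2 ratio −2.43, SE 0.38). On all of them KO replicate 1 stood above the other KO hearts and below every WT heart. By the means of log2 signal, KO hearts were 6.19-fold, 8.46-fold and 5.39-fold lower than WT hearts on the 3 probesets, from bright to dim. The deviations of the hearts from the mean of their own genotype were alike between the probesets (Pearson r = 0.894 for the brightest and the second, 0.860 for the brightest and the dimmest and 0.934 for the remaining pair, over 8 hearts, with shared arrays). Of the 15 probesets of the 6 genes, 4 had KO hearts wholly below WT hearts, these 3 and 1 of Scn7a, and 0 had them above, beside 3.29% below and 2.64% above of the 34958 probesets with 1 gene symbol. The 3 of Fgf12 read 1 gene on the same arrays, and no more is drawn from the count.

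**Figure D2:**
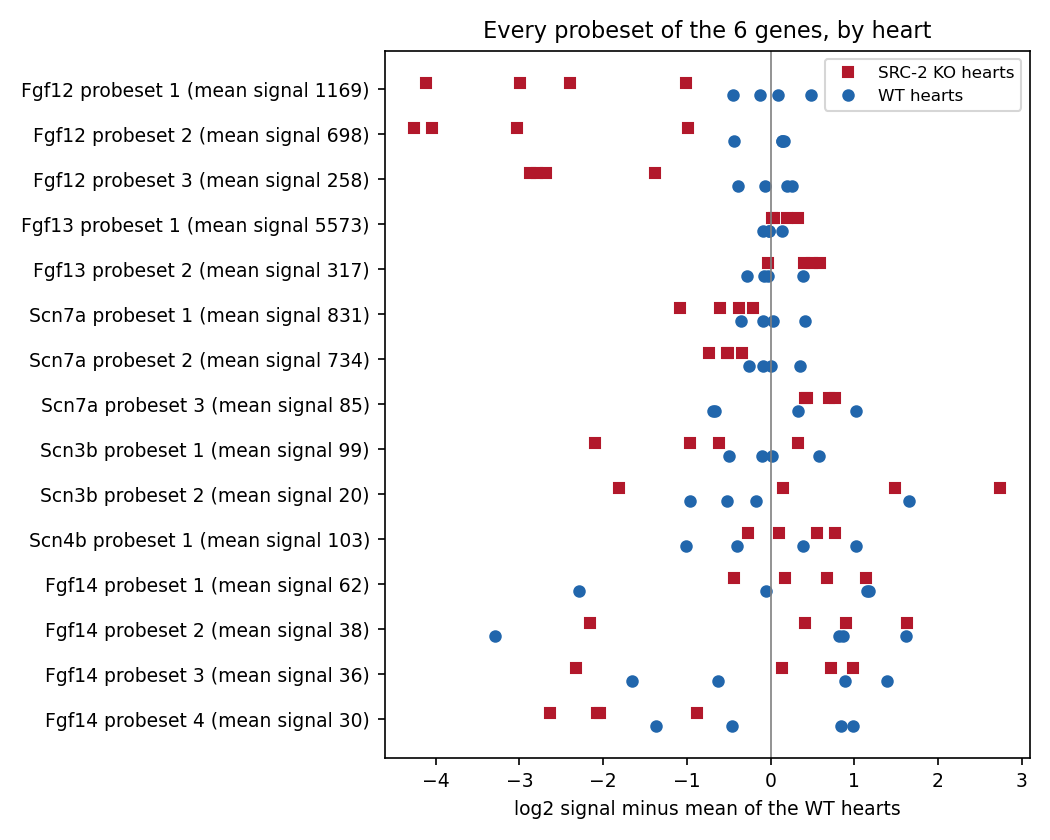
log2 signal of each heart relative to the WT mean, for all 15 probesets of the 6 genes, with the mean signal over the 8 hearts in brackets. Squares are SRC-2 KO and circles WT hearts (n = 4 each). The KO hearts lie below all WT hearts for the 3 probesets of Fgf12 and the second of Scn7a, and probesets of Fgf14 and Scn3b with mean signals under 50 scatter widely in both genotypes.

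The order of the KO hearts in Fgf12 on the brightest probeset was also their order in 5 of 12 genes that mark atrial myocytes. As a percent of the mean WT signal, Fgf12 stood at 48.2, 18.5, 5.63 and 12.2 in KO replicates 1 to 4. Sln, which encodes the calcium pump inhibitor sarcolipin, stood at 61.0, 18.4, 1.02 and 12.5, and Myl7, the atrial regulatory myosin light chain, at 84.0, 32.5, 2.70 and 18.3. In KO replicate 1 Fgf12 was at less of its WT level than each of the 12 markers except Dkk3. In KO replicate 3 Fgf12 was at more of its WT level than Sln, Myl7 and Myl4, and at less than every other marker of the list. Nppa, the atrial natriuretic peptide gene, stood at 117.8, 52.2, 17.99 and 42.5 percent. Of 12 measured atrial markers, 12 had negative log2 ratios (median −1.13, against −0.03 over all genes), 6 had all KO hearts below all WT hearts, and 3, Tbx5, Nr2f2 and Stard10, were called lower in the trended fit, with 0 called higher, beside 3.72% of all genes with KO hearts wholly below and 0.253% called lower. Their summed signal was 40783 to 225402 in KO hearts and 184200 to 298551 in WT hearts. These sums rest mostly on the brightest markers. In KO replicate 3, Clu gave 19983 and Nppa 12519 of the 40783. None of the list was at 0, nor were genes near background, so nothing is drawn from that. The markers Bmp10 and Gja5 had mean signals near or under 50.
Of these 12 markers, 5 (Sln, Myl7, Myl4, Nppa and Tbx5) had the same order of the KO hearts as the brightest Fgf12 probeset, with replicates 1, 2, 4 and 3 from high to low, and 3 (Myl7, Myl4 and Nppa) also its order of the WT hearts. Among the 12602 genes with a mean log2 signal of at least that of 50, 3.63% had the KO order and 0.183% both. These counts depend on the probeset. The dimmest Fgf12 probeset had the same KO order, shared by 5 of 12, the second another, shared by 1 (Stard10), and the order in both genotypes was shared by 0 of 12 on either. Kcnj3, a potassium channel subunit of the atria, had another order in both genotypes. Markers of ventricular myocytes had a summed signal of 146219 to 189846 in KO and 121293 to 170546 in WT hearts, and 0 of 6 were called. The part of the atrial share of a heart in the Fgf12 values was not tested. Without KO replicate 3, the heart with the least atrial signal, the log2 ratio of Fgf12 was −2.14 (SE 0.54, adjusted p = 0.0481 with the trended variance), and without KO replicate 1, the heart with the most among the KO hearts, −3.17 (SE 0.48, adjusted p = 0.00226 in that fit).

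**Figure D3:**
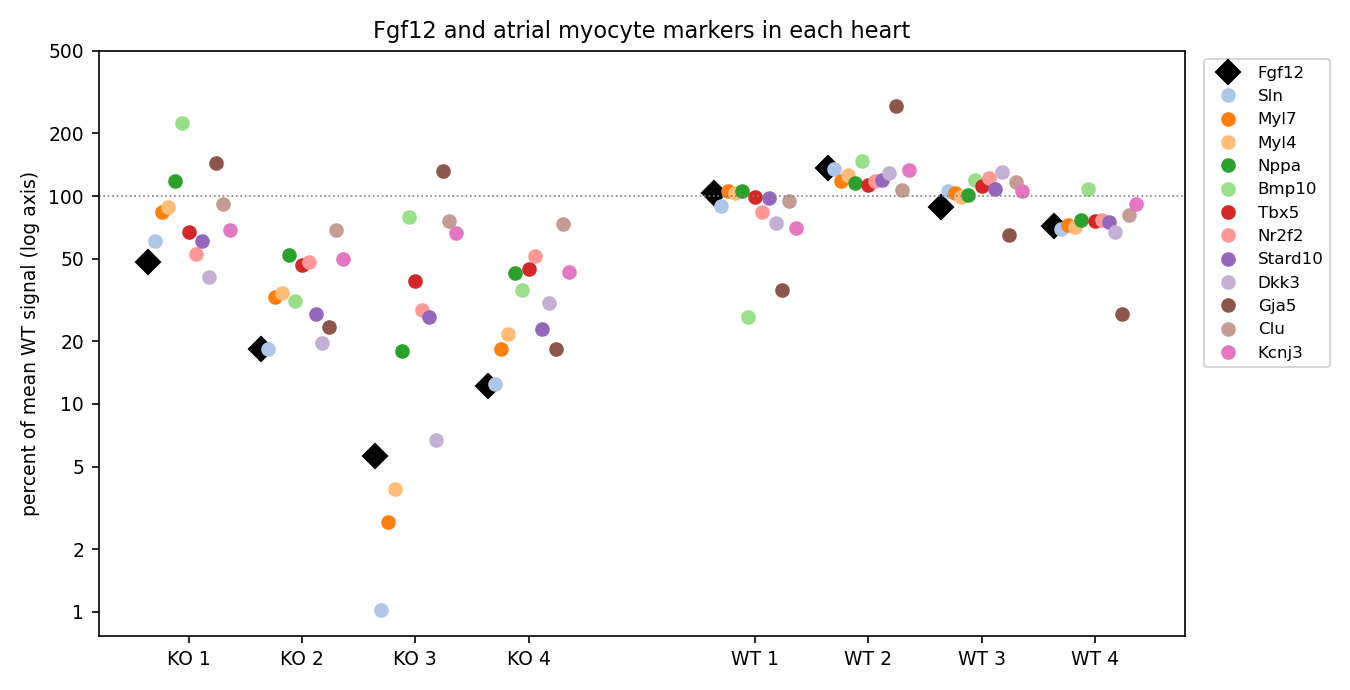
Signal of Fgf12 (black diamonds) and all 12 measured atrial markers (circles) in each heart, as a percent of the mean of the WT hearts, on a log axis, with the SRC-2 KO hearts on the left and the WT hearts on the right. In KO replicate 3 Fgf12 is at 5.63 percent, Sln at 1.02 percent and Tbx5 at 38.8 percent. The dim markers Bmp10, at 225.8 percent, and Gja5, at 145.0 percent, lie above the WT mean in KO replicate 1, and Clu lies at 69.0 to 91.9 percent in the KO hearts.

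The genes of most like pattern were ranked by the Pearson r of their deviations from the mean of their own genotype with those of Fgf12, over 8 hearts and 12601 other genes with a mean log2 signal of at least that of 50. The first was Nppa (r = 0.987), followed by Mybphl (0.985), Tmem163 (0.977), Alyref (0.976) and Slc22a12 (0.972), and 37 genes had r over 0.9. The likeness does not use the difference between genotypes, and the genes differ in it. Mybphl and Tmem163 had KO over WT log2 ratios of −3.05 and −3.37 (adjusted p = 0.0770 and 0.0482 with the trended variance), while Nppa had −1.09, Alyref −0.07 and Slc22a12 0.14. With 8 hearts and this many genes, high values of r are many, and r is given as a description of these hearts.

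Fgf13 had signals of 5417, 6061, 6644 and 5346 in KO hearts, against 5784, 4947, 5185 and 5203 in WT hearts. The groups overlap, with KO replicates 2 and 3 above every WT heart and KO replicates 1 and 4 below WT replicate 1. The mean was 5867 ± 610 in KO and 5280 ± 356 in WT hearts (SD, n = 4 each), a log2 ratio of 0.15 (SE 0.09, adjusted p = 0.687 with a common variance and 0.547 with the trended variance). The 95% interval of the difference, −0.12 to 0.42, leaves out changes of the size seen in Fgf12. Its second probeset, much dimmer, had 384, 360.0, 411 and 269 in KO hearts, against 259, 268, 357 and 225 in WT hearts (log2 ratio 0.36, SE 0.19), and again the groups overlap. KO replicate 3, which had the least Fgf12 on the brightest and dimmest Fgf12 probesets but not on the second, had the most Fgf13 of the KO hearts on both Fgf13 probesets.

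Fgf14 and Fgf11, the remaining homologous factors, are best known from neurons and were dim here. Fgf14 had signals of 96.8, 32.3, 49.3 and 69.6 in KO hearts, against 8.97, 99.2, 97.4 and 42.3 in WT hearts, and 4 of these 8 lie under 50. Its log2 ratio was 0.39 (SE 0.88, 95% interval −1.49 to 2.27), so no direction was detectable at this signal, and the sign turned to −0.37 without WT replicate 1. The other 3 probesets of Fgf14 had mean signals of 29.9 to 37.7. The dimmest of them had 9.36, 21.4, 9.62 and 6.34 in KO hearts, against 15.2, 28.7, 77.8 and 70.7 in WT hearts, with 6 of the 8 under 50. Fgf11 had a mean of 90.4 ± 48.0 in KO and 88.1 ± 22.5 in WT hearts (SD, n = 4 each; log2 ratio −0.19, adjusted p = 0.920 in the common-variance fit). Of the 4 homologous factors, Fgf12 was thus the one called in the trended fit, and whether its change differs from that of the others was not tested, since Fgf12 was chosen for its values.

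Scn7a had lower mean signals in KO hearts on both of its bright probesets and did not pass in either fit. On the brightest the KO hearts had 461, 749, 639 and 837, against 764, 1296, 990.5 and 910.1 in the WT hearts. Only KO replicate 4 lay above a WT heart, replicate 1. The mean was 671 ± 162 in KO and 990.2 ± 225 in WT hearts (SD, n = 4 each), a log2 ratio of −0.57 (SE 0.25, 95% interval −1.13 to −0.01, adjusted p = 0.492 with a common variance and 0.233 with the trended variance). On the second probeset the KO hearts had 599.7, 601, 516 and 679.9, against 718, 1093, 803 and 859 in the WT hearts, and the groups do not overlap (log2 ratio −0.52, SE 0.15). The dimmest, with a mean signal of 85.3, went the other way, with 87.5, 105, 109.96 and 86.1 in KO hearts, against 40.9, 81.4, 40.2 and 131 in WT hearts (log2 ratio 0.58, SE 0.42). With all 3 probesets averaged, the log2 ratio of Scn7a was −0.17 (adjusted p = 0.857).
KO replicate 1, the highest of the KO hearts on each Fgf12 probeset, was the highest on none of the Scn7a probesets, and the lowest on the brightest of them. Among 8 measured Schwann cell markers, 6 had negative and 2 positive log2 ratios (median −0.31), with 0 called in either fit, and their summed signal was 755 to 1027 in KO and 939 to 1437 in WT hearts. Kcna1, a potassium channel of nerve fibres in that list, had 121, 135, 164 and 147 in KO hearts, against 226, 415, 389 and 259 in WT hearts (log2 ratio −1.15, adjusted p = 0.0863 with the trended variance). Fibroblast markers had 7 of 7 negative values (median −0.59, 0 called, summed signal 53374 to 77382 in KO and 73848 to 122425 in WT hearts). In both lists, as in Scn7a, WT replicate 2 had the highest sum, and the part of these cells in the Scn7a values was not tested. No marker of either list was at 0, but genes near background also read above 0, so nothing is drawn from that.

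The beta subunits were dim, and neither measured member passed. Scn3b had signals of 27.3, 76.2, 60.0 and 146 in KO hearts, against 109, 173, 118 and 82.3 in WT hearts. KO replicate 4 stood above 3 of the WT hearts, and KO replicate 1 lay under 50. The log2 ratio was −0.83 (SE 0.55, 95% interval −2.01 to 0.34, adjusted p = 0.606 with a common variance and 0.534 with the trended variance), and the second probeset, with a mean signal of 19.6, is near background. Scn4b, a subunit known from heart and nervous system, had 125, 71.0, 146 and 91.8 in KO hearts, against 112, 42.4, 173 and 64.5 in WT hearts. The groups overlap over nearly their whole range (log2 ratio 0.29, SE 0.50, 95% interval −0.79 to 1.37, adjusted p = 0.846 and 0.844). Without WT replicate 2 its sign turned, to −0.046. Scn2b, the neighbour of Scn4b in the genome and the remaining beta subunit measured, had a mean of 45.1 ± 22.7 in KO and 62.5 ± 14.8 in WT hearts (SD, n = 4 each; log2 ratio −0.62, adjusted p = 0.667 in the common-variance fit). Of 12 neuronal markers, 6 had positive and 6 negative values (median −0.00, 0 called), with a summed signal of 1244 to 1677 in KO and 1335 to 1638 in WT hearts.

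The other sodium channel genes, the channel partners and a few transcription factors were read as lists chosen with earlier results known. Of 8 alpha subunit genes measured, 1, Scn7a, had a mean log2 signal of at least that of 50, and 0 were called in either fit. Scn10a, an alpha subunit of sensory neurons, had 59.8, 43.0, 95.1 and 40.2 in KO hearts, against 13.0, 56.6, 34.0 and 23.4 in WT hearts, near background in both (log2 ratio 1.02, adjusted p = 0.527 with the trended variance). Of 15 partners, which anchor, carry, phosphorylate or mark the channel for turnover, 6 had positive and 9 negative values (median −0.02) and 0 were called. Slmap, a sarcolemmal protein linked to delivery of the channel to the membrane, had 17023, 14224, 13550.1 and 14191 in KO hearts, against 11332, 10909.6, 11106 and 11434 in WT hearts (log2 ratio 0.39, SE 0.07, adjusted p = 0.0969 with the trended variance). Rangrf, which helps bring sodium channels to the surface, had a log2 ratio of 0.39 and Cav3, the muscle caveolin, one of −0.30 (adjusted p = 0.143 and 0.150 in that fit). Their KO hearts lay wholly above and wholly below the WT hearts, so 2 of 15 partners were above and 1 below, beside 3.12% and 3.72% of all genes.
Of 5 transcription factors known to act on sodium channel genes of the heart, 1, Tbx5, was called lower in the trended fit. In that fit 0.253% of all genes were called lower. Tbx5 had 632, 440.1, 365 and 419 in KO hearts, against 929, 1066, 1052 and 709 in WT hearts (log2 ratio −1.03, adjusted p = 0.0368 with the trended variance). Tbx3, a repressor of transcription found in the conduction system, had 260.0, 385, 373 and 354 in KO hearts, against 601, 461, 675 and 579.8 in WT hearts (log2 ratio −0.76, adjusted p = 0.0919 in that fit). Both have KO hearts wholly below WT hearts, as have 3.72% of all genes. Tbx5 also stands in the list of atrial markers and Tbx3 in that of the conduction system. Of the 7 measured conduction markers, 6 had negative values (median −0.73) and 0 were called. KO hearts lay wholly below WT hearts in 2 of that list, beside the same 3.72%. The summed signal of that list was 1225 to 1621 in KO and 2119 to 2555 in WT hearts.

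**Figure D4:**
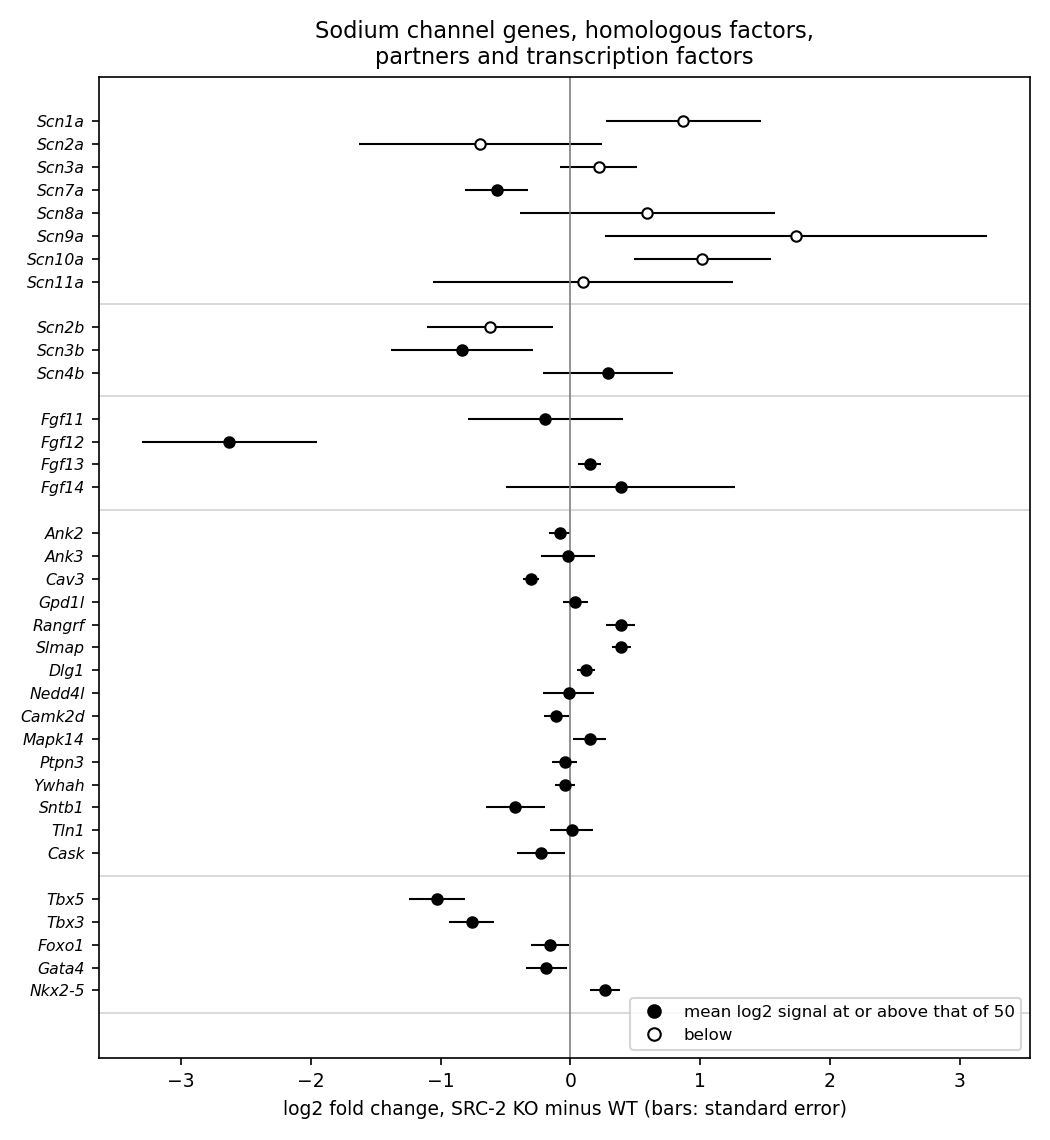
log2 fold change, SRC-2 KO minus WT, with its standard error from the spread of the hearts (n = 4 each), for the measured alpha subunits, beta subunits, homologous factors, partners and transcription factors, from top to bottom. Filled points have a mean log2 signal of at least that of 50. Fgf12, at −2.63, is the farthest from 0 among them, and the partners lie between −0.42 and 0.39.

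Fgf12 kept its sign under all 31 alternatives to the common-variance fit, from −3.17 to −2.14, and passed in 6 of them, all of which use the trended fit. The variance model cannot change a log2 ratio. Many of the 31 settings therefore repeat a value, such as the −2.63 of Fgf12, and they are not separate estimates of its sign. Fgf13 stayed between 0.09 and 0.26, Scn7a between −0.69 and −0.17 and Scn3b between −1.22 and −0.10, each with 1 sign throughout and 0 calls. Fgf14 was negative in 6 and Scn4b in 2 of the 31, where each negative value is counted once in either fit. The trended call of Fgf12 was lost without KO replicate 2 (adjusted p = 0.0784) or without any one of WT replicates 1 to 4 (adjusted p = 0.0969, 0.135, 0.106 and 0.0730), although the log2 ratio there was −2.78 to −2.47.

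**Figure D5:**
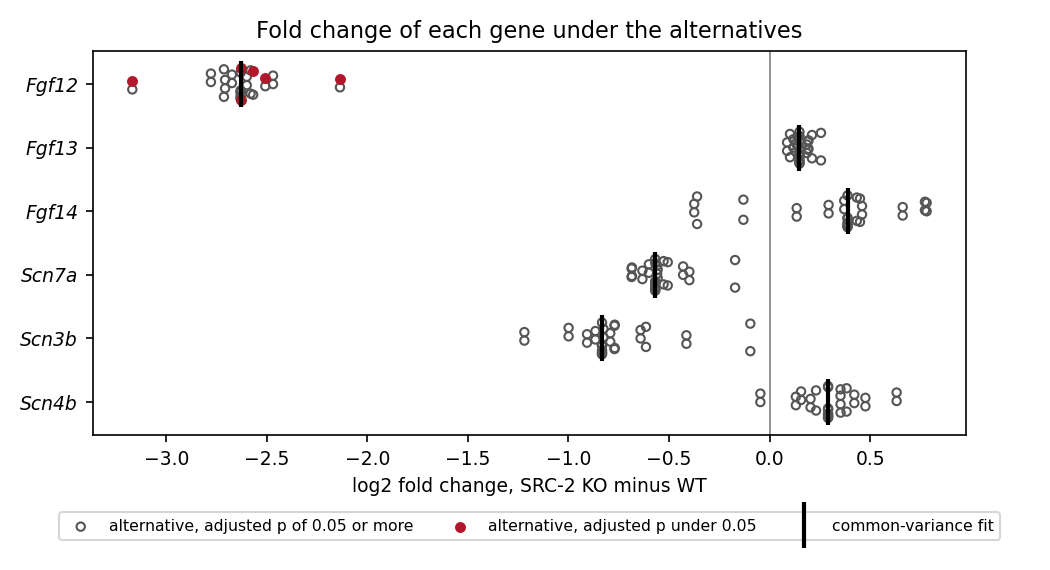
log2 fold change, SRC-2 KO minus WT, of the 6 genes in the common-variance fit (vertical bars) and under 31 alternatives (circles), filled where the adjusted p is under 0.05. Fgf12 lies between −3.17 and −2.14 throughout, and filled circles appear for Fgf12 alone.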

How the data were processed

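The deposited values are intensities, 1 for each of 45101 probesets and 8 arrays, on a linear scale. All arrays share one mean once the top and bottom 2% of probesets are set aside, a scaling made by the authors, and each array is 1 heart. Expression Console of Affymetrix, RMA and Partek stand in the submitters' processing notes, but the values are not log2 RMA values, so their log2 was taken with no floor. Of the probesets, 35890 were listed in the annotation used, 34958 of them with 1 gene symbol and 932 with several, which were left out. For each gene, the probeset with the highest mean log2 signal was kept, which gave 18194 genes.

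The genotypes were compared with limma 3.58.1 in R 4.3.3 (lmFit and eBayes, two-sided, threshold 0.05 after Benjamini-Hochberg over all genes). Standard errors of single genes come from the spread of the hearts. Both fits were run on simulated data with planted changes, and every planted change that was called had the right sign. The noise there was independent between genes and hearts, and no limit was set on false or missed calls. Lists of channel genes, partners and cell type markers, 16 with 131 entries of which 117 were measured, were written from general knowledge. The members and lists were chosen with earlier results of these data known. Genes were named by a rule: Ncoa2, the members, genes of the channel lists that were called or whose hearts do not overlap, and the genes of most like pattern. Dim channel genes and the cell type markers shown beside a member were chosen after their values were seen. Replicate numbers are shared by the genotypes but name separate mice. The alternatives were other variance models, the random variance model test of the methods, other probesets, scalings, a floor of 50, a filter, a replicate block and leaving out each array. The settings that join the trended fit to another choice, other than leaving out arrays, were added after the data were seen. Python 3.11.15 and matplotlib 3.10.9 drew the figures.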

Additional observations from a re-analysis of the deposited data

How the results depend on the processing

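The common-variance fit called 1 gene higher and 3 lower in KO hearts. The trended fit called 22 and 46, each gene's own variance 0 and 1, the mean of all probesets 0 and 1, and a replicate block 0 and 0. Quantile normalization, a floor of 50 and removal of dim genes called 0 higher. Joined to the trended fit, a floor of 50 called 0 and 2, median centring 26 and 43, quantile normalization 17 and 29, the mean of all probesets 3 and 12, and a replicate block 26 higher and 51 lower. Without each array in turn, the common-variance fit called 0 to 1 higher and 1 to 2 lower, and the trended fit 2 to 104 higher and 3 to 216 lower, the most without KO replicate 4 and the fewest without WT replicate 2.

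Fgf12 had −2.63 in the trended fit (adjusted p = 0.0368), and with it −2.57 after median centring (adjusted p = 0.0331) and −2.63 with a replicate block (adjusted p = 0.0310). The floor of 50 ended that call (adjusted p = 0.241), although the ratio and SE of Fgf12 stayed at −2.63 and 0.67. Its brightest probeset had 0 hearts under 50, so the floor changed the values of other genes only. These enter the shared variance and the adjustment. Quantile normalization (0.0553) and the mean of all probesets (0.0550) ended the call too, and the cause was not tested. Without each array in turn its log2 fold change was −3.17 to −2.14. Fgf14 turned to −0.36 as a mean of all probesets and to −0.13 with the floor, in both fits, and was −0.37 to 0.78 without each array. Scn4b was −0.046 to 0.63 without each array, and −0.046 without WT replicate 2 in both fits. Deviations of arrays with the same replicate number correlated at −0.03 to 0.06 over the genes, which cannot settle pairing for single genes. With a replicate block the SE fell for Scn4b (from 0.50 to 0.22), Scn7a and Fgf12. It rose for Fgf14 (from 0.88 to 1.13), Fgf13 and Scn3b. Whether the numbers pair the hearts was not tested. Signals under 50 limit what can be read of Fgf14, Scn3b and Scn4b.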

Other observations

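The members other than Fgf12 were alike to other genes, by the same measure of deviations within genotypes over 8 hearts. For Scn7a the closest genes were Apod (r = 0.989), Rassf2 (0.981) and Adamts15 (0.972). Of these, Adamts15 had a log2 fold change of −1.18 (limma adjusted p = 0.0172 with the trended variance) and the others −0.06 and −0.19. For Fgf13 they were Paqr9 (0.988), Abcd3 (0.981) and Metap2 (0.970). For the dim genes they were Cspp1, H2aw and Mpp7 for Scn3b, Shc1, Cenpa and Trim54 for Scn4b, and Metap1, Fcer1g and Dusp18 for Fgf14, with r of 0.964 to 0.995. None of the closest genes of one member was among those of another.

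Among skeletal muscle markers, the troponin gene Tnni2 had 204, 58.4, 162 and 163 in KO hearts, against 725, 755, 317 and 605 in WT hearts (log2 fold change −2.10, limma adjusted p = 0.0368 with the trended variance). Its KO hearts were in another order than those of Fgf12, with replicate 2 the lowest. Of the 13 markers of that list, 5 had positive and 8 negative values (median −0.41), 4 had a mean log2 signal of at least that of 50, and Tnni2 was the 1 called. Over all genes, 0.253% were called lower and 0.121% higher in the trended fit. Of the remaining marker lists, endothelium had 5 of 5 negative values (median −0.36), macrophages 4 of 4 (median −0.37), smooth muscle and pericytes 4 of 5 (median −0.12, 1 called higher with the trended variance) and adipocytes 0 of 3 (median 0.52).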
